A study of Mus musculus with 11 samples.

Results

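A set of 10 secreted signalling genes of the immune system was followed in S3, the straight segment of the proximal tubule in the outer kidney medulla: the chemokines Cxcl1, Cxcl2, Cxcl10, Cxcl12, Cxcl16, Cx3cl1 and Ccl2 and the cytokines Il34, Il18 and Il23a. They were taken by gene symbol. Each of the 10 had a single probe set annotated with that symbol alone, and together they are 10 of the 22180 genes that could be named in this way. Arrays from 6 samples of wild-type mice (WT) were compared with arrays from 5 samples of Tamm-Horsfall protein knockout mice (THP -/-), both of strain 129/SvEv, with no treatment named for either genotype. Batch 1 held 5 wild-type and 3 knockout arrays, and batch 2 held 1 wild-type and 2 knockout arrays. The sources used here give no age, no sex and no account of how the allele was made. Since no label ties an array to an animal of its own, p-values describe variation among arrays, which may be technical. The study's title concerns circulating uromodulin, the Tamm-Horsfall protein encoded by Umod, and the comparison asks how S3 transcripts differ without it.

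Chemokines are small secreted proteins that draw leukocytes along a gradient by binding receptors on those cells. Epithelial cells of the proximal tubule can make several of them, mostly under control of the transcription factor NF-kB, whereas CXCL12 is made at rest by stromal, vascular and epithelial cells and holds leukocytes and progenitor cells that carry CXCR4. CXCL16 and CX3CL1 are made as membrane proteins and released by shedding, IL-34 supports macrophages through CSF1R, IL-18 is stored as a precursor and cut by caspase 1, and IL-23 is a heterodimer of the p19 subunit encoded by Il23a with the p40 subunit encoded by Il12b.

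RefSeq promoter sequences (build GRCm38.p6) matched 6 of the 10 genes. Of these, 4 are shown over the 250 bases before the transcript start, 5′ to 3′ on the strand of the gene: Cxcl12, the gene whose genotypes separated on these arrays, and 3 chemokines known as NF-kB targets for contrast. Capitals mark matches to an NF-kB type motif (GGG, any 2 bases, TT, any base, CC) or an interferon response type motif (GAAA, any 2 bases, GAAA) in Cxcl1, Cxcl2 and Cxcl10, and matches to GGGCGG (a GC box) in Cxcl12, on either strand. The windows lie at chr6:117168285-117168534 on the plus strand for Cxcl12, chr5:90890995-90891244 on the plus strand for Cxcl1, chr5:90903649-90903898 on the plus strand for Cxcl2 and chr5:92348890-92349139 on the minus strand for Cxcl10.
Cxcl12: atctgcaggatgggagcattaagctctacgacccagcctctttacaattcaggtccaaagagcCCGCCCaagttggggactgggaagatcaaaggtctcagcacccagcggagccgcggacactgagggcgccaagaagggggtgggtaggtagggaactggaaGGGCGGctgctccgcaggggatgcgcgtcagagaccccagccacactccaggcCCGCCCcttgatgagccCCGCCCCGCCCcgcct
Cxcl1: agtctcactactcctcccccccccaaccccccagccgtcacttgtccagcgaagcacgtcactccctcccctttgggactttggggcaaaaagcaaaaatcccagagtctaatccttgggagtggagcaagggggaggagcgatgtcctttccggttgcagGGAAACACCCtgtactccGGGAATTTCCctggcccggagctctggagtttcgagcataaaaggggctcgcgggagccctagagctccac
Cxcl2: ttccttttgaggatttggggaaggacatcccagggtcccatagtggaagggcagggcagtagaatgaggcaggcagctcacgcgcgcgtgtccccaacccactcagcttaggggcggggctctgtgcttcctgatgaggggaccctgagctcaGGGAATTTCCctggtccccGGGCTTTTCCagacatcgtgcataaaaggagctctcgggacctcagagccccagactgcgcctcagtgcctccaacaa
Cxcl10: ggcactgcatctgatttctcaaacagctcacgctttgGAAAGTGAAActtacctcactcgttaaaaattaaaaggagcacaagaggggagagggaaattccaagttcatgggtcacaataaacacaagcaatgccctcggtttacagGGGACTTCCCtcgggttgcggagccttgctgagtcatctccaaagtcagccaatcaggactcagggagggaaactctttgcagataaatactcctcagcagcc

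The Cxcl12 window held 5 GC boxes, of which the pair closest to the start shares 1 base, and no match to the NF-kB or interferon type motif. Cxcl1 and Cxcl2, which both lie on chromosome 5, each held 2 matches to the NF-kB type motif (Cxcl2 also 1 GC box), and both windows contain GGGAATTTCC. The first base of that match lies 71 bases before the start in Cxcl1 and 97 bases before it in Cxcl2. Cxcl10 held 1 match of each of the other motifs, GGGACTTCCC and GAAAGTGAAA. Of the matched genes not shown, Cx3cl1 held 1 GC box and Il18 held 0 matches of any of the 3 motifs. Among 32851 RefSeq promoter windows of the same length, 4.11% held the NF-kB type motif, 2.98% the interferon type motif and 32.7% a GC box. A match describes letters in the window and is not evidence that a factor binds there.

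No chemokine or cytokine of the set passed the test over all probes, and Cxcl12 was the member with the largest difference. Its signal was 2.18-fold higher in knockout S3 tubules, with all 5 knockout arrays above all 6 wild-type arrays. Ccl2 was lower in knockout at dim signal. For the other 8 genes the 95% interval of the difference included 0, and 5 of these 8 had signals near the array floor in both genotypes. Limma, a linear model with batch as a term and variances shared across probes, called 0 of the 10 genes at an adjusted p of 0.05 (Benjamini-Hochberg over 41345 probes), where 0% of all probes were called. At an unadjusted p under 0.05 it counted 2 of the 10, Cxcl12 higher and Ccl2 lower, against 6.16% of all probes, or 3.40% higher and 2.76% lower. The count was 4 of 10 without knockout replicate 2, with Il34 and Il23a added. In that fit 3016 of the 41345 probes had such a p, against 2546 with all arrays. The groups did not overlap for 1 of the 10, Cxcl12, against 0.597% of all probes and 0.627% of genes with 1 probe set each. In its direction, higher in knockout, it was 0.370% of all probes. The fitted difference was positive for 5 of the 10, against 53.4% of all genes. A two-sided exact permutation test of genotype within batches also put Cxcl12 and Ccl2 under 0.05, as it did for 5.79% of all probes.

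**Figure D1:**
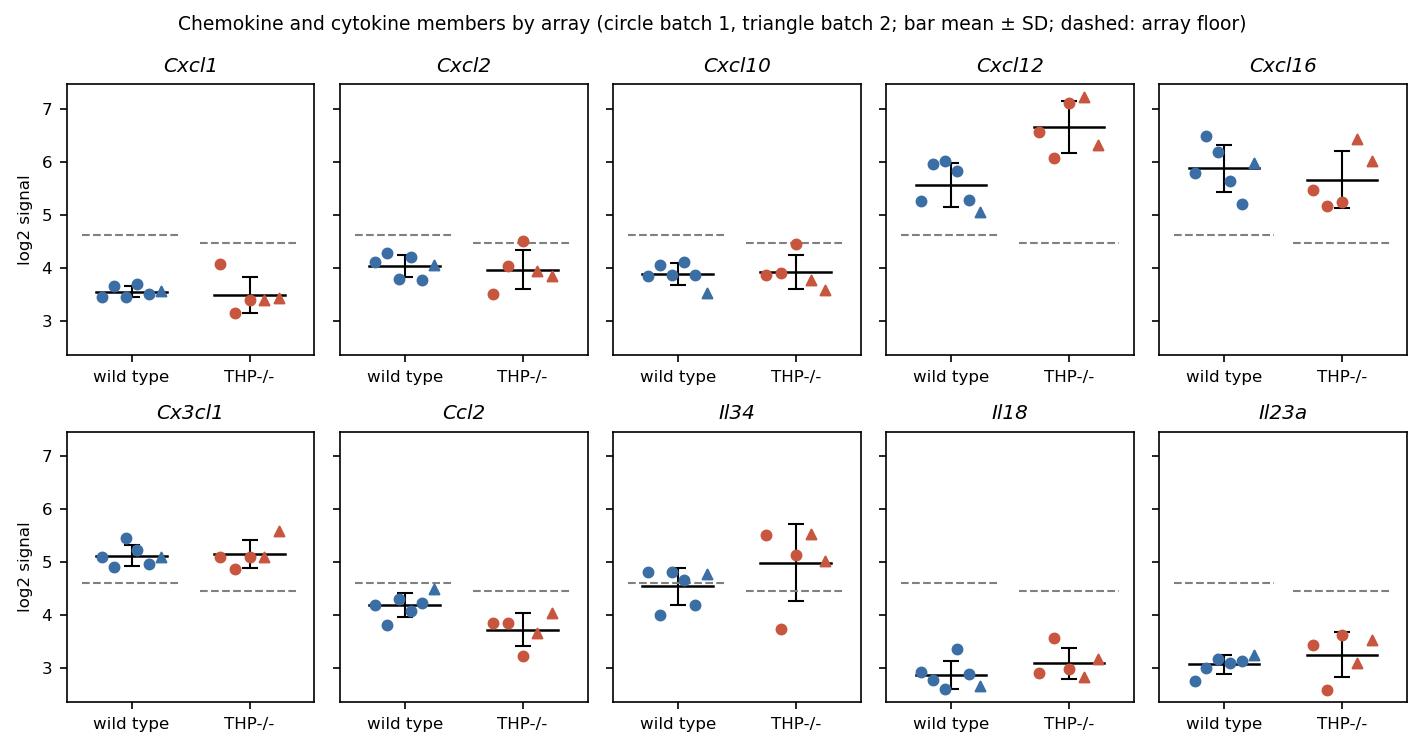
Log2 signal of the 10 chemokine and cytokine genes on each array, by genotype, with batch 1 as circles, batch 2 as triangles, the mean and SD as bars and the array floor as a dashed line. Cxcl12 is the panel in which the knockout arrays (6.08 to 7.23) all lie above the wild-type arrays (5.06 to 6.02), and Cxcl1, Cxcl2, Cxcl10, Ccl2, Il18 and Il23a have means under the floor in both genotypes.

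The arrays were alike in scale, with medians from 3.85 to 4.01 on the log2 scale and correlations between arrays from 0.901 to 0.955 over all probes. The floor of the arrays was gauged from 1429 olfactory, vomeronasal and bitter taste receptor genes, which tubules are not known to use. The 95th percentile of their means was 4.62 in wild type and 4.47 in knockout, and a gene below it is called near the floor here, because its signal was not shown to exceed background. By that gauge 12688 of the 22180 genes were near the floor in both genotypes. Umod read 5.27 to 6.74 in wild type and 3.68 to 5.27 in knockout (log2 difference -1.52 ± 0.24, SE). Its limma adjusted p was 0.281, so the knocked-out gene itself did not pass the threshold over all probes. Knockout replicate 5, at 5.27 in Umod, equalled wild-type replicates 2 and 5. Without that array Cxcl12 differed by 1.18 and 11 of all probes passed the adjusted threshold, against 0 with it. The knockout mean of Umod, 4.49, was just above the knockout floor of 4.47. The sources used here do not say where the Umod probe set lies relative to the change in the allele. Proximal tubule markers were above the floor for 6 of 6 measured, with Lrp2 (megalin) at 10.63 in wild type and 10.61 in knockout. The organic anion transporter Slc22a8 of that list read 7.24 and 5.75, a difference of -1.78 ± 0.44 (SE, limma adjusted p of 0.586). In the list counts here and below, a gene is above the floor if its mean was above it in at least 1 genotype. S3 markers were above the floor for 9 of 9, but so were 7 of 8 S1 and S2 markers, 7 of 8 thick ascending limb markers and 6 of 7 collecting duct markers. The arrays thus bear out proximal tubule and do not single out S3. The S3 marker Slc7a12 (3.75 in wild type) was just above the floor in knockout alone. Ptger3, Scnn1b and Scnn1g of the other lists were above it in knockout alone too. Knockout replicate 4 stood apart in thick ascending limb markers, with a mean of 7.63 over 8 genes. The other knockout arrays ran from 5.67 to 6.25 and wild type from 5.40 to 6.12. Knockout replicate 4 was also the highest array in collecting duct (6.17), intercalated cell (4.53), endothelial (4.89) and stromal markers (4.35). Over all arrays the thick ascending limb mean was higher in knockout by 0.41 ± 0.31 (SE, exact permutation p = 0.256). All 8 of its genes had a positive fitted difference, against 53.4% of all genes. Within batch 1, which does not hold knockout replicate 4, their differences ran from 0.033 (Ptger3) to 0.85 (Slc12a1). The direction was as one-sided in other lists. The fitted difference was positive for 9 of 9 S3 markers (median 0.40, against 0.37 for the thick ascending limb). It was negative for 7 of 8 S1 and S2 markers (median -0.28).

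Cxcl12 (Entrez 20315, probe set 17462149) encodes the homeostatic chemokine also called SDF-1. The wild-type arrays ran from 5.06 to 6.02 with a median of 5.56. Knockout replicates 1 to 5 read 6.57, 6.08, 7.11, 7.23 and 6.32. All knockout arrays were higher than any wild-type array, although knockout replicate 2 lay only just above the highest of them, and replicates 3 and 4 were the highest. The wild-type mean was 5.57 ± 0.42 (SD, n = 6) and the knockout mean 6.66 ± 0.50 (SD, n = 5), both above the floor. The batch-adjusted log2 difference was 1.12 ± 0.27 (SE), with a 95% interval from 0.53 to 1.72. It was 0.91 within batch 1 and 1.71 within batch 2, where the single wild-type array was the lowest of all. The limma adjusted p was 0.543 and the exact within-batch permutation p was 0.00595, the smallest that the 168 arrangements allow and one that 0.692% of all probes reached. In such samples more cells of a type and more RNA per cell cannot be told apart.

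Knockout replicate 4, highest in Cxcl12, was also the array with the highest thick ascending limb, endothelial and stromal marker means. Without it the Cxcl12 difference was 0.99 ± 0.24 (SE), and with the thick ascending limb marker mean as a covariate it was 0.83 ± 0.22, both positive and neither past the threshold over all probes (limma adjusted p of 0.705 and 0.79). Endothelium and stroma are known sources of Cxcl12, and some of their markers were above the floor. The mean of the 10 endothelial markers ran from 4.50 to 4.71 in wild type and from 4.50 to 4.89 in knockout, with 6 above the floor, among them Egfl7 (5.70 and 5.49), Kdr (5.09 and 5.19) and Pecam1 (5.06 and 5.29), and 4 near it (Emcn, Eng, Flt1 and Tek). The mean of 9 stromal markers ran from 4.14 to 4.27 and from 4.09 to 4.35, with Acta2 (5.88 and 5.80), Col1a2, Col3a1 and Notch3 above the floor in at least one genotype and Pdgfrb, Pdgfra, Dcn, Rgs5 and Col1a1 near it. With the endothelial mean as a covariate the Cxcl12 difference was 1.04, and with the stromal mean it was 1.16. The S3 marker mean itself was higher in knockout by 0.52 ± 0.31 (SE, exact permutation p = 0.125), and with it as a covariate the Cxcl12 difference was 1.16.

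**Figure D2:**
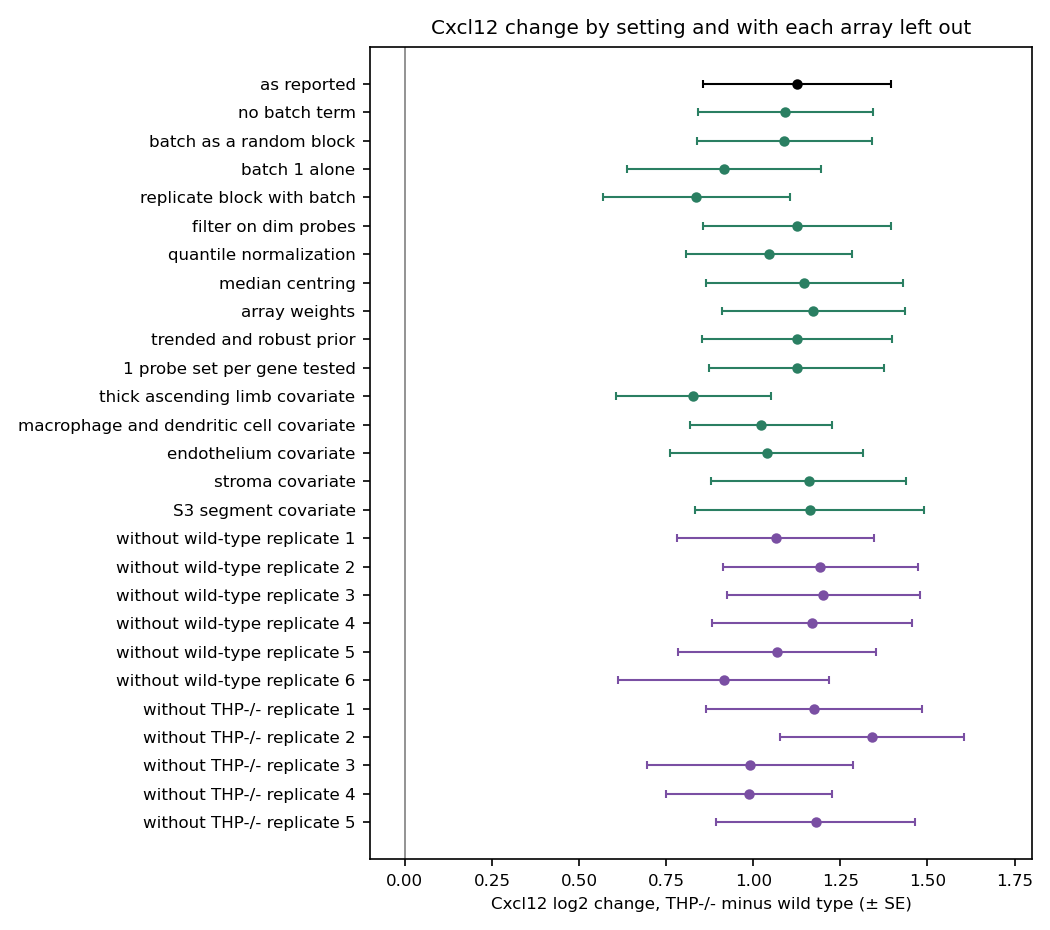
Log2 difference of Cxcl12, knockout minus wild type, with its SE, as reported, under 15 other settings and with each of the 11 arrays left out. All the values lie above 0, from 0.83 with the thick ascending limb covariate to 1.34 without knockout replicate 2, and none of these fits had an adjusted p under 0.05.

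The receptors of Cxcl12 were measured above the floor. Cxcr4, the receptor that carries its chemotactic signal, averaged 4.91 ± 0.23 in the wild type (SD, n = 6) and 4.90 ± 0.27 in the knockout (SD, n = 5). Its log2 difference of -0.08 had a 95% interval from -0.39 to 0.22. Ackr3, an atypical receptor that takes up and removes CXCL12, read 5.12, 5.84, 5.71, 5.42, 5.73 and 6.03 in wild type and 5.51, 5.42, 5.24, 5.37 and 5.07 in knockout. These ranges overlapped, and the difference of -0.34 ± 0.17 (SE) did not pass, with a 95% interval from -0.72 to 0.04. Dpp4, a brush border peptidase that inactivates CXCL12 and CXCL10, read 5.92 and 5.91, a log2 difference of -0.04 ± 0.20.

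Ccl2 (Entrez 20296), the monocyte chemoattractant, had lower signal in knockout, but both means were near the floor. The wild-type arrays ran from 3.82 to 4.50 with a median of 4.22. The knockout arrays read 3.85, 3.85, 3.24, 3.67 and 4.05. The groups overlapped, since wild-type replicate 2 at 3.82 was below 3 of the knockout arrays. The wild-type mean was 4.19 ± 0.23 (SD, n = 6) and the knockout mean 3.73 ± 0.31 (SD, n = 5), a log2 difference of -0.52 ± 0.16 (SE) with a 95% interval from -0.87 to -0.18. It was -0.48 within batch 1 and -0.64 within batch 2. The limma adjusted p was 0.674 and the exact within-batch permutation p was 0.0179. No fold is given at this level. Ccr2, its receptor on monocytes, was near the floor at 3.15 and 3.13.

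Cxcl16 and Cx3cl1, the membrane-bound chemokines, were above the floor in both genotypes and did not separate them. Cxcl16 (Entrez 66102) ran from 5.21 to 6.49 in wild type with a median of 5.90, and read 5.47, 5.18, 5.25, 6.43 and 6.02 in knockout. The 3 knockout arrays of batch 1 were low and the 2 of batch 2 were high, so the difference was -0.57 within batch 1 and 0.24 within batch 2. The fitted difference was -0.36 ± 0.24 (SE), with a 95% interval from -0.89 to 0.18 and a limma adjusted p of 0.85. It was -0.57 without wild-type replicate 6 and -0.23 without wild-type replicate 2. Cx3cl1 (Entrez 20312) ran from 4.91 to 5.45 in wild type with a median of 5.10, and read 5.10, 4.88, 5.10, 5.10 and 5.59 in knockout. Its difference was -0.01 ± 0.15 (SE), with an interval from -0.34 to 0.31, and its sign changed with the setting. The shedding proteases Adam10 (6.37 and 6.63) and Adam17 (5.17 and 5.39) had differences of 0.23 ± 0.15 and 0.19 ± 0.15. Cx3cr1, the receptor of CX3CL1 on monocytes and resident macrophages, read 5.48 in wild type and 5.43 in knockout, while Cxcr6, the receptor of CXCL16 on T cells, was near the floor at 2.82 and 2.73.

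Il34 (Entrez 76527), a ligand of the macrophage receptor CSF1R, lay at the floor in wild type and above it in knockout. The wild-type arrays ran from 4.01 to 4.82 with a median of 4.72. The knockout arrays read 5.51, 3.75, 5.14, 5.54 and 5.03. Knockout replicate 2 was the lowest of all 11 arrays and the other 4 knockout arrays were above every wild-type array. Over all arrays the difference was 0.35 ± 0.31 (SE), with a 95% interval from -0.32 to 1.03 and a limma adjusted p of 0.877. It was 0.72 ± 0.22 without knockout replicate 2 (limma adjusted p of 0.618), 0.12 without knockout replicate 1 and 0.17 with the thick ascending limb covariate. Csf1r read 6.51, 6.19, 6.55, 5.72, 6.45 and 6.62 in wild type and 6.75, 7.11, 7.10, 7.08 and 6.62 in knockout. Knockout replicate 5 equalled the highest wild-type array and the rest were higher, with a fitted difference of 0.58 ± 0.19 (SE, limma adjusted p of 0.735, exact permutation p of 0.0298). The difference of Csf1r was 0.31 with the S3 marker mean as a covariate. It was 0.48 with the thick ascending limb mean and 0.59 with the macrophage and dendritic cell mean. Macrophage markers other than Csf1r were mostly near the floor, 13 of 16 measured, among them Adgre1, Ptprc, Lyz2 and C1qa. H2-Ab1 and H2-Aa, class II antigen presentation genes of that list, were above it. H2-Ab1 read 9.44 in wild type and 8.76 in knockout (-0.69 ± 0.33, SE, limma adjusted p of 0.82), and H2-Aa 5.70 and 5.52 (-0.24 ± 0.20). Both had the opposite sign to Csf1r. Cd68 was above the floor in knockout (4.50 and 4.69), with a difference of 0.20 ± 0.11, the same sign as Csf1r. Of the 16 measured markers 10 had a positive difference and 6 a negative one, where 53.4% of all genes were positive.

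**Figure D3:**
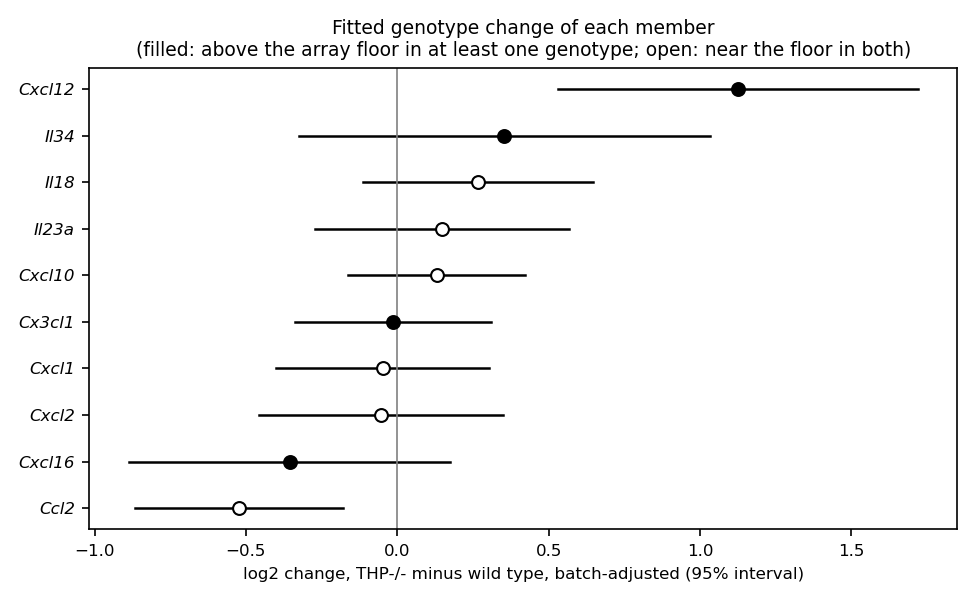
Batch-adjusted log2 difference of each gene, knockout minus wild type, with its 95% interval, in order of size. Filled points are genes above the array floor in at least one genotype. Cxcl12 (0.53 to 1.72) and Ccl2 (-0.87 to -0.18) are the genes whose interval leaves out 0, and the 8 others lie between -0.36 and 0.35.

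Cxcl1 and Cxcl2, the neutrophil attractants that act through CXCR2, had dim signal in S3 tubules of both genotypes. Cxcl1 (Entrez 14825) ran from 3.45 to 3.70 in wild type and read 4.07, 3.16, 3.39, 3.40 and 3.43 in knockout, so knockout replicate 1 was the highest and replicate 2 the lowest of all arrays. Cxcl2 (Entrez 20310) ran from 3.78 to 4.29 in wild type and read 3.51, 4.04, 4.51, 3.94 and 3.86 in knockout. On these arrays the order of the knockout samples was not the same for the 2 genes. The difference was -0.05 ± 0.16 (SE) for Cxcl1, with a 95% interval from -0.40 to 0.30, and -0.05 ± 0.18 for Cxcl2, with an interval from -0.46 to 0.35. Both are close relatives, and how far their probe sets share signal was not tested. Cxcl10 (Entrez 15945), the interferon-induced chemokine of CXCR3, ran from 3.53 to 4.12 in wild type and read 3.87, 3.91, 4.45, 3.78 and 3.59 in knockout. Its difference was 0.13 ± 0.13 (SE), and without knockout replicate 3 it was 0.0043. Cxcr2 (2.84 and 2.95) and Cxcr3 (4.25 and 4.17) were near the floor too.

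Il18 and Il23a were near the floor in both genotypes, a level at which a probe set cannot show that a transcript is missing. Il18 (Entrez 16173), the caspase 1 substrate, ran from 2.62 to 3.36 in wild type and read 2.91, 3.58, 2.98, 2.84 and 3.17 in knockout. The difference was 0.27 ± 0.17 (SE), with a 95% interval from -0.11 to 0.65. Leaving out knockout replicate 2 gave 0.13, and leaving out wild-type replicate 4 gave 0.35 (unadjusted limma p of 0.0495). The Il18 difference was 0.40 with the thick ascending limb covariate (unadjusted limma p of 0.0482). Il23a (Entrez 83430) ran from 2.76 to 3.26 in wild type and read 3.44, 2.59, 3.62, 3.11 and 3.53 in knockout. Here 3 knockout arrays lay above all wild-type arrays and replicate 2 below all of them. The difference was 0.15 ± 0.19 (SE) over all arrays, 0.35 ± 0.15 without knockout replicate 2 and 0.0034 without knockout replicate 3. Il12b, whose product pairs with that of Il23a, read 4.65 and 4.44, a difference of -0.25 ± 0.15, with the knockout mean under the floor. Casp1 (2.35 and 2.39), Il18r1 (3.21 and 3.18) and Il23r (2.50 and 2.57) were near the floor, whereas Il18bp, the soluble inhibitor of IL-18, read 4.67 and 5.01 with a difference of 0.30 ± 0.24.

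Wider lists of the same pathways held no gene past the threshold over all probes. The median log2 difference over all genes was 0.015, and 5.64% of the 22180 genes had an unadjusted p under 0.05. The members had a median of 0.057. Among 18 receptors of the members the median was -0.0037 and 1 gene, Csf1r, had an unadjusted p under 0.05. After Csf1r, the smallest p values belonged to Il18rap (0.24, near the floor), Ackr3 and Sdc1 (0.13), a heparan sulfate proteoglycan that binds IL-34. Among 15 processing enzymes and binding partners 0 genes did and the median was -0.021. The smallest p values there belonged to the gelatinase Mmp9 (-0.35, near the floor), caspase 8 (0.36), Il12b and Mmp2 (-0.18, near the floor). Of the 10 measured genes of the inflammasome and interleukin 1 family 9 were near the floor, with a median of -0.022. The inflammasome sensor Nlrc4 was at 0.57 ± 0.21 (SE), from 2.94 to 3.44, both near the floor, followed by Il1a (-0.27), Il1b (-0.32) and the receptor Il1r1 (-0.25).

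NF-kB pathway genes numbered 19 measured, 12 of them above the floor, with a median difference of 0.085. The kinase subunit Ikbkb was higher in knockout at 0.28 ± 0.11 (SE, unadjusted p of 0.0262), and its relatives in order of p were the inhibitor Nfkbie (-0.29, near the floor), the A20-binding protein Tnip1 (-0.24) and the ubiquitin ligase Traf6 (0.23). Among 17 measured JAK-STAT and interferon regulators the median was 0.10. Socs3, the feedback inhibitor of IL-6 type receptors, was lower in knockout at 4.23 ± 0.21 (SD, n = 5) against 4.72 ± 0.30 (SD, n = 6), a difference of -0.45 ± 0.17 (SE). Its knockout mean was under the floor. Stat2, a transcription factor of interferon signalling, had a difference of 0.52 ± 0.16 and Ifng one of -0.34 ± 0.14, both near the floor, and Irf9 was at 0.32 ± 0.16. The limma adjusted p of Ikbkb, Socs3, Stat2 and Ifng ran from 0.732 to 0.774.

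Among 28 other measured chemokines, 19 were near the floor and the median difference was 0.041. Ccl28 (3.07-fold), an epithelial chemokine for CCR10 and CCR3, had the largest difference of this list. It read 6.40, 5.30, 6.23, 5.86, 5.71 and 6.40 in wild type and 7.59, 6.63, 8.51, 8.74 and 6.95 in knockout. All knockout arrays were above all wild-type arrays, and replicates 3 and 4 were the highest, as they were for Cxcl12. The fitted difference of Ccl28 was 1.62 ± 0.40 (SE), with a 95% interval from 0.74 to 2.49, at 1.68 within batch 1 and 1.45 within batch 2. The limma adjusted p was 0.563 and the exact permutation p was 0.00595, the smallest possible and one that 0.692% of all probes reached. Groups did not overlap for 0.370% of all probes higher in knockout and 0.227% lower. Ccl28 was named because its p was the smallest of the list, so these values are not a separate test of it. The Ccl28 difference was 1.28 without knockout replicate 3, 1.44 without knockout replicate 4 and 1.93 without knockout replicate 2. It was 1.16 with the thick ascending limb covariate, 1.31 with the S3 covariate and 1.51 with the macrophage and dendritic cell covariate. Cxcl5, another CXCR2 ligand, was lower at 3.84 against 3.48 (-0.33 ± 0.11) near the floor and without overlap, and Cxcl17 (-0.23) and Pf4 (-0.26) were near the floor too. Among 39 measured cytokines and growth factors 35 were near the floor and the median was -0.071. Il17f read 4.74 in wild type and 4.18 in knockout, where its mean was under the floor. Its difference was -0.62 ± 0.24, or -0.36 in batch 1 and -1.36 in batch 2. Il20 (0.44 ± 0.15), Lta (-0.30 ± 0.12) and Fasl (-0.24 ± 0.13) were near the floor in both genotypes.

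**Figure D4:**
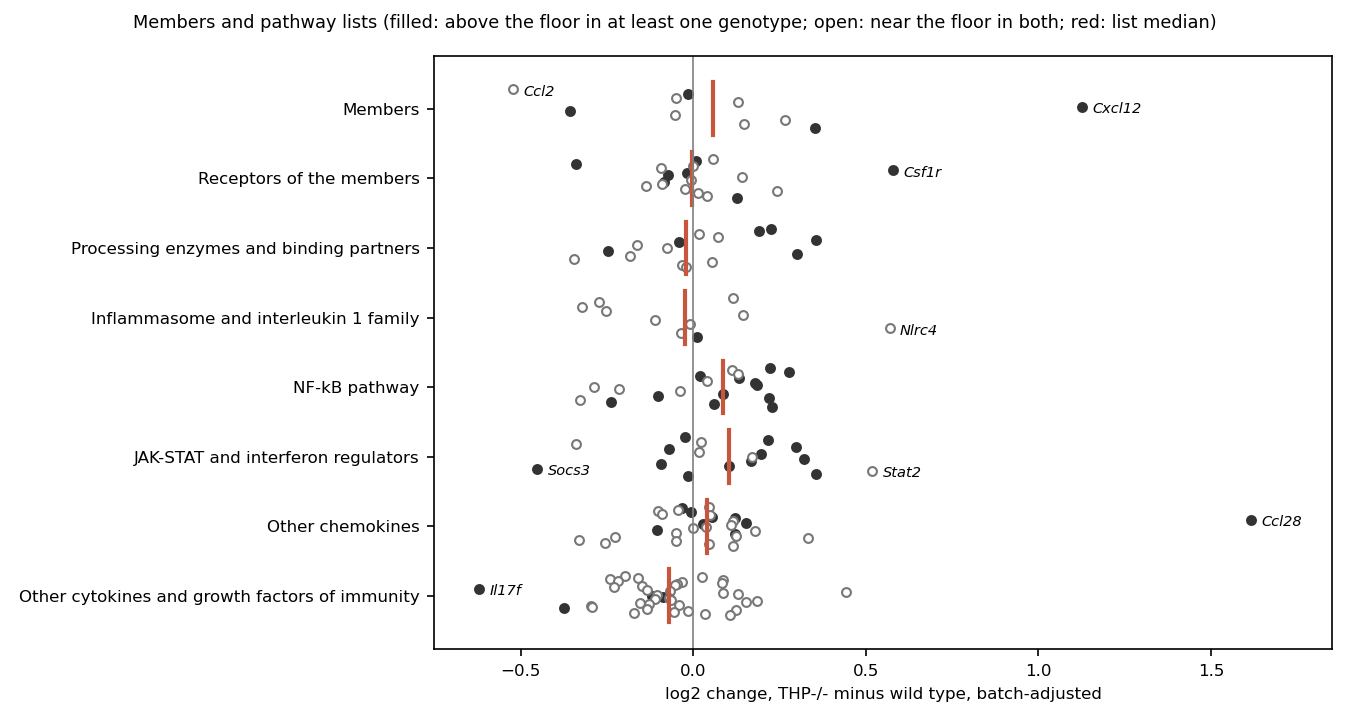
Batch-adjusted log2 difference, knockout minus wild type, of every measured gene of the members and the 7 pathway lists, with list medians in red. Ccl28 (1.62) and Cxcl12 (1.12) lie apart to the right, while list medians lie between -0.071 and 0.10.

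Markers of leukocytes were mostly near the floor, with the exceptions named here and beside Csf1r. Neutrophil markers were near the floor for 10 of 10 genes, S100a8 and S100a9 included, with means from 3.24 to 3.49 in wild type and 3.28 to 3.68 in knockout. T, B and NK cell markers were near the floor for 8 of 10 measured genes, with means from 3.77 to 4.05 and from 3.57 to 3.83, and Cd3e (4.95 and 4.59) and Nkg7 (4.81 and 4.76) above it. Macrophage and dendritic cell means ran from 4.18 to 4.43 and from 4.13 to 4.48. Of the other lists, S1 and S2 markers ran from 5.62 to 6.66 and from 5.40 to 6.76, collecting duct markers from 4.75 to 5.38 and from 4.59 to 6.17, intercalated cell markers from 3.62 to 4.05 and from 3.76 to 4.53, and podocyte markers from 3.96 to 4.24 and from 3.97 to 4.12. Of the 5 erythrocyte markers 0 were named by a probe set of their own. In each of these lists the 2 genotypes overlapped, and their part in the chemokine differences was not tested beyond the covariates given.

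**Figure D5:**
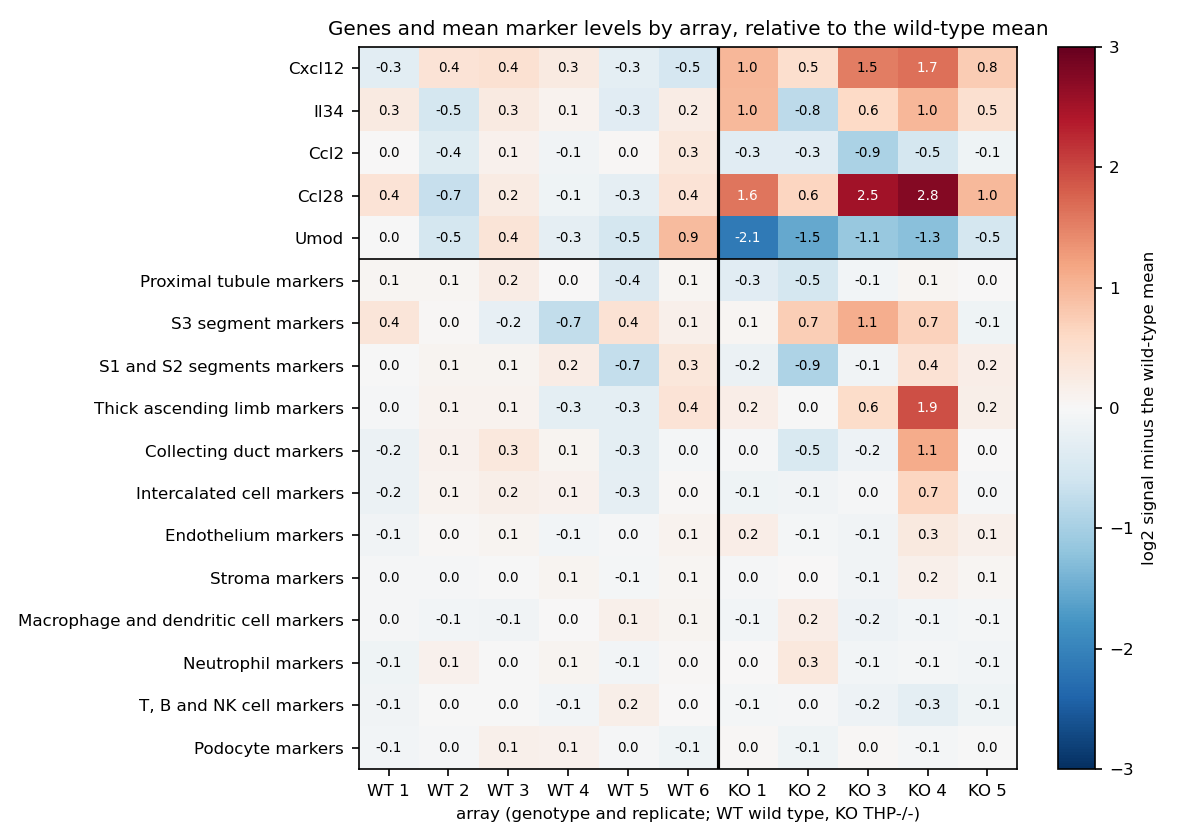
Difference of each array from the wild-type mean, in log2 signal, for Cxcl12, Il34, Ccl2, Ccl28 and Umod and for the mean of each marker list. Knockout replicate 4 has the highest thick ascending limb mean (7.63) as well as the highest Cxcl12 (7.23) and Ccl28 (8.74), while knockout replicate 3 is high in Cxcl12 (7.11) with a thick ascending limb mean of 6.25.

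For the 3 members above the floor in both genotypes, the genes of most similar pattern over the 11 arrays were listed as a description. Nearest to Cxcl12 were Fam241a (Pearson r = 0.922), the nucleoporin Nup98 (0.916) and Neurog2 (0.913). Nearest to Cxcl16 were the lipid phosphatase Plpp3 (0.91), the mitochondrial isocitrate dehydrogenase Idh2 (0.886) and Ing4 (0.88). Nearest to Cx3cl1 were Rbp7 (0.925), Ceacam13 (0.892) and Ctag2l2 (0.891), of which Ceacam13 and Ctag2l2 were near the floor with wild-type means of 2.26 and 2.33. Fam241a (3.82 in wild type) and Plpp3 (4.22) were near it too. Genes with Gm, Rik and similar names were skipped. These are the highest correlations among the rest of the 22180 genes over 11 arrays that share genotype and batch, and they carry no test.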

How the data were processed

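S3 tubule RNA (2 ng) was labelled, per the labels' protocols, with an Affymetrix WT Pico kit. The authors deposited log2 values made with Partek 6.6 and RMA, per the submitters' processing notes. A batch correction, a probe filter and a genome build are not given in the sources used here. RMA draws array distributions together and can shrink shared changes. Names came from the platform annotation (23521 probes with 1 symbol, 1814 with several, 16010 with none), and for each gene the probe set with the highest mean over all arrays was kept.

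Limma 3.58.1 in R 4.3.3 fitted genotype and batch on all 41345 probes, two-sided, with 8 residual degrees of freedom (prior 2.90) and Benjamini-Hochberg adjustment. The fit and the permutation test were tested on simulated data. Plots used matplotlib 3.10.9.

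The members, the 7 pathway and 13 marker lists were chosen with earlier results of these data known. Genes named beside the members were up to 4 per pathway list with the smallest p, receptors and partners of the members, markers, and 3 genes per member with the highest correlation, predicted genes skipped. Alternatives covered batch, replicate block, normalization, filters, weights, priors, marker covariates and each array left out. The endothelium, stroma and S3 covariates were chosen after seeing the data. Ccl28 and Csf1r were refitted with arrays left out and with covariates after their values were seen.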

Additional observations from a re-analysis of the deposited data

Results flagged for a closer look

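The Il34 signal of knockout replicate 2 was 3.75, while the other 4 knockout arrays ran from 5.03 to 5.54, a gap of more than the range of those 4. A gap of this size relative to the whole range is expected in about 1 in 20 groups by chance, and it was found in 1 of the 22 groups examined (the 10 genes and Umod in each genotype). The same array was also the lowest of all for Il23a (2.59), Cxcl1 (3.16), Cxcl16 (5.18) and Cx3cl1 (4.88), but the highest of all for Il18 (3.58).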

How the results depend on the processing

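The count of members past the adjusted threshold was 0 under every setting run, and Cxcl12, Cxcl16, Cxcl10, Ccl2, Il34, Il18 and Il23a kept their sign in each. The sign of Cx3cl1 turned to 0.026 without the batch term, 0.030 with batch as a random block, 0.0066 with median centring, 0.0075 with array weights, 0.047 with the thick ascending limb covariate and 0.13 with the S3 covariate, and ran from -0.11 to 0.055 with an array left out. Cxcl1 turned to 0.092 with the S3 covariate (-0.24 to 0.074 with an array left out) and Cxcl2 to 0.053 with the endothelium covariate (-0.23 to 0.11). In the fit with a replicate block and batch, Cxcl1 was at 0.02, Cxcl16 at -0.86, Cxcl12 at 0.84 (limma adjusted p = 0.998) and 0 members were called. Same-numbered arrays did not deviate together (correlations from -0.18 to 0.012, and 0 of 5 knockout arrays correlated best with their own number). Batch was left in these deviations, and replicates 4 and 5 lie in batch 1 in wild type and batch 2 in knockout. For those numbers the check could not show a pairing. Of all probes, 3 passed in batch 1 alone, 1 with 1 probe set per gene, 1 with the thick ascending limb covariate, 4 at a threshold of 0.10 and 0 to 11 with an array left out (11 without knockout replicate 5). Members at an unadjusted p under 0.05 ran from 2 to 4 and probes from 2096 to 3016 with an array left out. Probes at that p numbered 1480 after the filter on dim probes and 1525 with 1 probe set per gene, where fewer were tested, and 4996 at 0.10. The dim filter kept 6 members. With the 90th percentile of the receptor genes as the floor 4 members were near it (Ccl2 and Cxcl2 left it), with the 99th percentile 8 (Cx3cl1 and Il34 joined), and with the lower quartile of all probes 0. At the 99th percentile (5.64 in wild type) the wild-type mean of Cxcl12, 5.57, was under the floor and only its knockout mean was above. Averaging probe sets was not run because each member has 1. For the 6 members near the floor, signal over background limits what a difference can show.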
